A study of Homo sapiens with 12 samples.

Results

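ATF4 and 9 genes that act with it or under it in the cellular stress response (ATF5, CEBPB, DDIT3, TRIB3, CHAC1, DDIT4, SESN2, ASNS and VLDLR) were followed across 3 treatments of A549, a cell line from a human lung adenocarcinoma with features of alveolar epithelium. The genes were chosen by symbol, with earlier results of these data known, so shares of all genes set beside them describe and do not test. All 10 were found among the 25433 genes in the tables and were tested in every comparison. Control cells received neither agent, a group of cells received TGF-β1 at 10 ng/mL, and another received the same TGF-β1 with sodium acetate at 40 mM, all for 2 days. TGF-β1 is the cytokine best known for turning epithelium mesenchymal, and acetate can be made into acetyl-CoA. No group received acetate without TGF-β1 or another sodium salt, so effects of acetate, sodium and osmolarity cannot be told apart. Each group held 4 RNA-seq libraries of a single cell line, called here by their column codes (control S1 to S4, TGF-β1 alone S15 to S18, and TGF-β1 with acetate, below also "acetate", S22 to S25). Whether replicate libraries were separate cultures is not labelled, so the p-values reflect only the spread among them, which may be technical.

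ATF4 is a bZIP transcription factor whose protein is made mainly when stress kinases phosphorylate the initiation factor eIF2α, through short upstream reading frames in its mRNA. Its level is therefore set in large part by translation, which RNA counts do not measure. With partners of the C/EBP family it turns on genes for amino acid supply, tRNA charging and redox balance, and under lasting stress it raises DDIT3 (CHOP) and the pseudokinase TRIB3, which feeds back on ATF4. The pathway answers amino acid shortage, unfolded protein in the endoplasmic reticulum, mitochondrial stress and haem deficiency.

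ATF4 and C/EBP factors bind a composite DNA element read as TGATGNAA, called CARE. It was searched on both strands in the 250 bases before the RefSeq start sites (GRCh38.p14), where it lay in 2 of the 10 genes, against 3.89% of 27305 genes. The ERSE element of the ATF6 arm, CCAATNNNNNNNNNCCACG, was searched in the same way and was matched in 0 of the 10 and in 0.0916% of all genes, so no matches of the 2 elements overlapped in the 10 genes. The 2 matches were in ASNS and CHAC1, the genes with the lowest acetate levels relative to control (6.93% and 4.24%). TRIB3, without a match in this window, was close to ASNS at 7.06%, and a link between element and level was not tested. The 30 bases around both matches are shown, each 5′ to 3′ in the direction of the gene with the element in capitals.
ASNS: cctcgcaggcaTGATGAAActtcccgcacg
CHAC1: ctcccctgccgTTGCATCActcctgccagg
The ASNS stretch lies at chr7:97872458-97872487 on the minus strand, and the element covers positions -68 to -61 from the start site, on the strand of the gene. The CHAC1 stretch lies at chr15:40953251-40953280 on the plus strand, with the element at positions -209 to -202 on the opposite strand. GENCODE release 29 places earlier starts for both genes, so that each element is also inside the first exon, before the coding sequence, of 2 annotated transcripts. A match of letters is a description and not a measured binding site.

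Total counts per library ran from 34698057 to 53936023, and 3 counts correspond to 0.0556 to 0.0865 CPM, a floor for counting error only. CPM is the count scaled by the library total, which was TMM-adjusted for all levels but not for this floor. All 8 A549 markers were detected and 6 of them were at 100 CPM or more in every group, although EPCAM averaged only 4.22 CPM in control. They summed to 18390 to 19494 CPM in control, 18265 to 19323 with TGF-β1 and 12505 to 13419 with acetate. ALDH1A1, at 8919, 13781 and 6736 CPM in that order of groups, held much of this sum, and the markers did not keep their levels one by one. With TGF-β1, 6 of the 8 were called lower and 1 higher (edgeR, median log2 fold change -1.47), with AKR1B10 at 3484 and then 269 CPM and EPCAM at 1.08 CPM. In the acetate step 6 were higher and 2 lower (6 and 1 with raw library totals). Shares of all genes called are given with each comparison below. The 5 fibroblast markers summed to 0.903 to 1.45 CPM in control, 7.90 to 9.64 CPM with TGF-β1 and 19.0 to 21.5 CPM with acetate, with DCN at 0.0264, 0.359 and 0.658 CPM. Of the 5 leukocyte markers CD14 and CD68 were analysed, and summed to 11.9 to 14.6, 13.3 to 16.6 and 23.9 to 25.3 CPM in the same order of groups. Of the 5 endothelial markers CLDN5 was analysed and reached at most 0.390 CPM in any library. PTPRC, CD3E, MS4A1, PECAM1, CDH5, VWF and KDR were not found by symbol among the genes in the tables. The part of these markers in the results was not tested. Column codes are tied to groups only through the authors' table names and the columns the tables share, and every comparison rests on that placement.

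One TGF-β1 library, S17, stood apart from the other 3 of its group in these genes. It held the highest level of the 4 libraries in 9 of the 10 genes, while it was highest in 24% of all 22742 tested genes. Other groups also had a library that was often highest: S2 of control and S24 of the acetate group in 6 of the 10 genes each, against 27.7% and 32.8% of all genes. CHAC1, an enzyme that degrades glutathione, showed the largest excess: 401 counts in S17 against 28, 32 and 39 in S15, S16 and S18. Among the 17432 genes at 1 CPM or more, CHAC1 ranked 1 by its excess in S17, at 3.09 on a log2 scale over the mean of the other 3 libraries. ATF4 was 1.35-fold, DDIT4 1.39-fold and DDIT3 1.45-fold the mean of the other 3, and ATF5 stood at 0.980-fold. S17 was also the deepest of all 12 libraries and had the highest share of small nuclear and nucleolar RNA in its group, 1.67% against 1.44% to 1.57%. The acetate group as a whole lay below both other groups in that share, at 1.02% to 1.2% against 1.34% to 1.55% in control. Its share of all small RNA was also lower, at 4.68% to 5.71% against 5.88% to 6.99% with TGF-β1 and 6.00% to 7.76% in control. The part of depth in the high values of S17, and of these shares in S17 and in the acetate comparisons, was not tested. Leaving S17 out changed no call of the 10 genes in any comparison, and it changed the sign of CHAC1 in acetate against TGF-β1. It took the TGF-β1 fold changes of ATF4, DDIT3 and DDIT4 to -0.69, -2.75 and -1.16 on the log2 scale, and those of the acetate step to -0.46, -0.23 and -0.71. The values below are with S17 unless said.

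**Figure D1:**
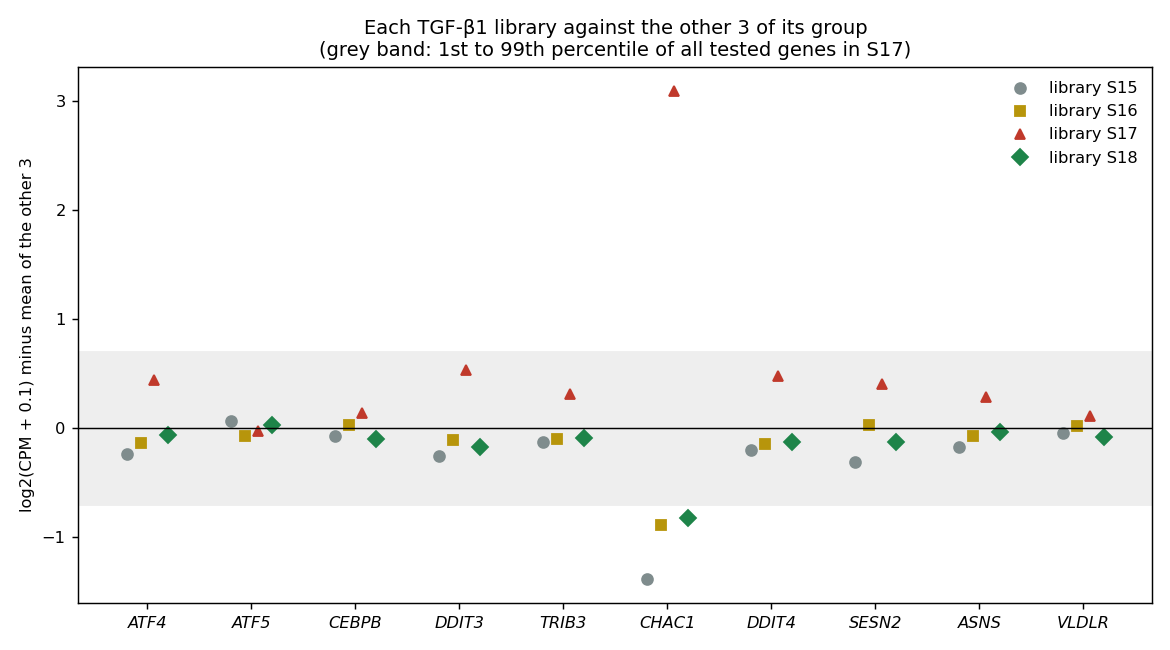
For each gene (horizontal axis), the log2 level (CPM + 0.1) of each TGF-β1 library minus the mean of the other 3 is shown, and the grey band covers the 1st to 99th percentile of all tested genes in S17. S17 is the highest point for 9 of 10 genes, and CHAC1 at 3.09 is the only one of the 10 outside the band in S17.

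With TGF-β1, 9 of the 10 genes were lower than in control and 0 were higher. TRIB3, CHAC1, ASNS and DDIT3 fell most, to 4.43%, 11.3%, 15% and 16.5% of their control means, and ATF5 was the only gene of the 10 that did not pass the test. The test was edgeR's quasi-likelihood test with Benjamini-Hochberg adjustment over all genes and a threshold of 0.05, here and below. By the same test 32.8% of all 22051 genes were called lower and 34.1% higher, so a single lower call is common in this comparison. A fall of at least 2-fold was called in 7 of the 10, against 8.68% of all genes. The median log2 fold change of the 10 was -1.45, and that of all tested genes 0.016. Because the 10 were chosen with earlier results of these data known, the shares of all genes here are a description. In 9 of the 10 every TGF-β1 library lay below every control library, against 30.3% of the 21898 genes for which this could be read. At an unadjusted p below 0.05, and with DESeq2 or limma-voom in place of edgeR, the number of the 10 called higher was 0 as well. In bulk RNA, fewer cells of a kind and less RNA per cell cannot be told apart.

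With acetate added to TGF-β1, 5 of the 10 genes were called lower and 2 higher. ATF4, ATF5, DDIT3, DDIT4 and ASNS fell further below the TGF-β1 group, TRIB3 and VLDLR rose above it, and CHAC1, SESN2 and CEBPB did not pass the test. The background was 30.4% of 22336 genes called lower and 33.3% called higher. Calls in both directions are thus common in this comparison, and mixed directions are not read as a trait of the 10 genes. ASNS was the only one of the 10 with a called fall of at least 2-fold, against 2.07% of all genes. The median log2 fold change of the 10 was -0.46 against 0.026 for all genes, and without S17 it was -0.08. With raw library totals in place of TMM scaling, the median of all genes moved to 0.16 and the share of calls that were higher went from 52.3% to 67.1%. Under that scaling 3 of the 10 were called higher and 4 lower, beside 9592 higher and 4699 lower among all 22336 genes.

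Against control, all 10 genes were lower in the acetate group, where 34.4% of 22742 genes were called lower and 36.1% higher. Falls of at least 2-fold were called in 8 of them, against 5.47% of all genes, and the median was -1.74 against 0.023. These comparisons share groups of libraries, so their values are given side by side and are not independent of one another. In the authors' deposited table for TGF-β1 against control, 9 of the 10 genes were lower at a q-value below 0.05. In the authors' deposited table for acetate against TGF-β1, 5 were lower and 2 higher at that q-value. The share of all genes at the authors' q-value was not computed, so these counts have no background of their own. The edgeR shares above do not stand in for it.

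**Figure D2:**
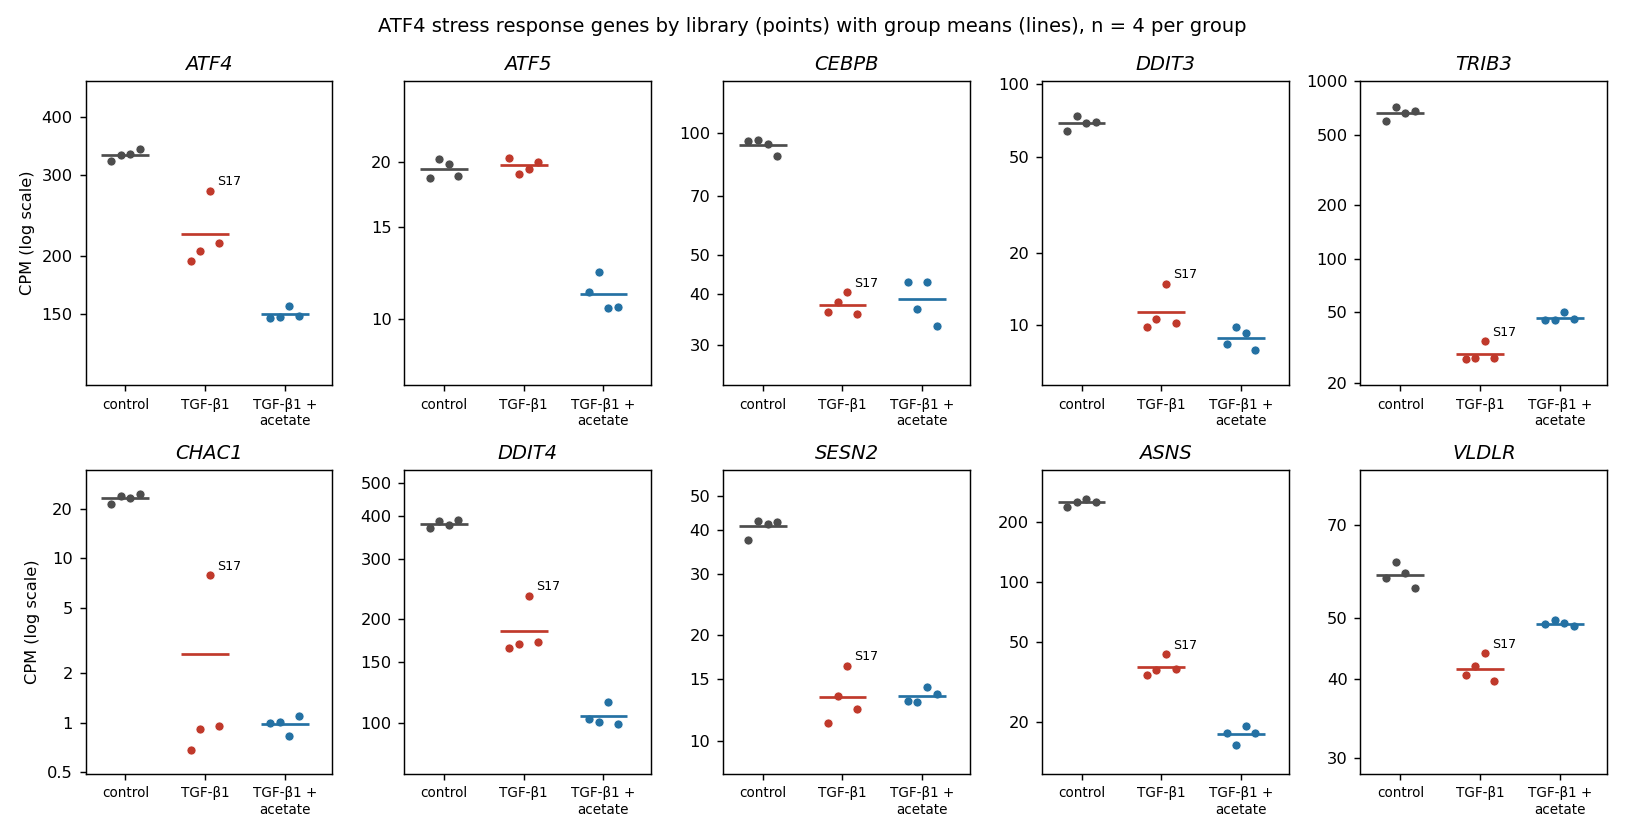
Each panel shows 1 gene, with CPM on a log axis by group, a point for each library and a line at the mean (n = 4 per group). Control libraries lie above all treated libraries except for ATF5, whose TGF-β1 libraries (19.0 to 20.4 CPM) overlap control (18.7 to 20.2 CPM).

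Among the transcription factors, ATF4 RNA (chr22:39519695-39522685) was 322, 330, 333 and 342 CPM in the control libraries. It was 195, 206, 277 and 214 CPM with TGF-β1 and 147, 148, 156 and 149 CPM with acetate. The 3 groups did not overlap: control was highest, acetate lowest, and S17 was the TGF-β1 library nearest to control. The log2 fold change was -0.57 ± 0.078 (SE; edgeR adjusted p = 7.01e-06) with TGF-β1 and a further -0.56 ± 0.080 (adjusted p = 1.52e-05) when acetate was added. Relative to control, the ATF4 mean was 67.2% with TGF-β1 and 45.2% with acetate.

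ATF5, a bZIP factor whose translation is controlled in a way like that of ATF4, was the exception in the TGF-β1 comparison. Its levels were 18.7, 20.2, 19.8 and 18.8 CPM in control and 20.4, 19.0, 19.4 and 20 CPM with TGF-β1, so these groups overlapped. Acetate libraries held 11.3, 12.3, 10.5 and 10.6 CPM, all below both other groups. The difference with TGF-β1 was 0.03 ± 0.048 on the log2 scale (edgeR adjusted p = 0.611), and with acetate against TGF-β1 it was -0.81 ± 0.061 (adjusted p = 1.20e-08). ATF5 (chr19:49928702-49933935) shares 626 of its 2954 exon bases with NUP62 on the other strand. NUP62, a nuclear pore gene, averaged 96.8, 129 and 94.6 CPM in control, TGF-β1 and acetate. The strand setting of the counts is not given in the sources used here, so reads of the pair cannot be told apart in the shared part.

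CEBPB, a C/EBP factor that pairs with ATF4 and also serves inflammatory and differentiation programmes, fell with TGF-β1 and stayed in that range with acetate. Control libraries had 95.6, 96.0, 94.2 and 87.5 CPM and TGF-β1 libraries 36.2, 38.3, 40.5 and 35.8 CPM. The acetate libraries had 42.9, 36.9, 42.9 and 33.4 CPM and overlapped the TGF-β1 group. The log2 fold change with TGF-β1 was -1.30 ± 0.045 (edgeR adjusted p = 1.80e-13). Between acetate and TGF-β1 it was 0.06 ± 0.072 (adjusted p = 0.500). With raw library totals that last value was 0.19 and passed the test (adjusted p = 0.0219). CEBPB shares 11.8% of its exon bases with CEBPB-AS1 on the other strand, which averaged 7.40, 3.14 and 3.38 CPM in control, TGF-β1 and acetate.

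DDIT3 encodes CHOP, a C/EBP relative that promotes cell death under lasting stress. Its control libraries had 63.8, 73.5, 69.1 and 69.6 CPM, and its TGF-β1 libraries 9.85, 10.6, 14.9 and 10.3 CPM. With acetate the values were 8.33, 9.80, 9.29 and 7.92 CPM, so that the highest acetate library lay just below the lowest TGF-β1 library. DDIT3 fell by 2.58 ± 0.093 on the log2 scale with TGF-β1 (edgeR adjusted p = 2.94e-13) and by a further 0.37 ± 0.12 with acetate (adjusted p = 0.0129). The step with acetate did not pass when raw library totals were used (log2 fold change -0.23, adjusted p = 0.0877). DDIT3 (chr12:57516588-57520517) shares 27.2% of its exon bases with MARS, the methionyl-tRNA synthetase gene on the other strand, which averaged 416, 155 and 116 CPM in the 3 groups. MARS counts were 5.86 to 14.9 times those of DDIT3, and in the shared part reads of both genes cannot be told apart.

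TRIB3, the feedback pseudokinase, had the largest fall of the 10 with TGF-β1, although without S17 that of CHAC1 was larger (-4.77 against -4.58 on the log2 scale). Control libraries had 595, 714, 660 and 675 CPM, whereas TGF-β1 libraries had 27.3, 27.6, 34.4 and 27.8 CPM, a 22.6-fold lower mean. The acetate libraries had 45.5, 45.5, 50.1 and 45.7 CPM and lay between the other groups without overlap, far nearer to TGF-β1. On the log2 scale the change was -4.49 ± 0.075 with TGF-β1 (edgeR adjusted p = 1.79e-17) and 0.68 ± 0.066 with acetate against TGF-β1 (adjusted p = 2.34e-07). With acetate the TRIB3 mean was 7.06% of control. TRIB3 lies at chr20:362835-397559.

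CHAC1 was nearly lost in most treated libraries. Control libraries had 21.3, 23.8, 23.2 and 24.7 CPM. TGF-β1 libraries had 0.686, 0.913, 7.91 and 0.950 CPM, the third of these being S17, and acetate libraries had 1.00, 1.01, 0.827 and 1.10 CPM. The fall with TGF-β1 was called (log2 fold change -3.01 ± 0.41, edgeR adjusted p = 7.14e-06), and without S17 it was -4.77 (adjusted p = 3.30e-15). Between acetate and TGF-β1 the fold change was -1.47 ± 0.64 and did not pass (adjusted p = 0.0562). Without S17 it turned to 0.20 (edgeR adjusted p = 0.438). The other 3 TGF-β1 libraries averaged 0.850 ± 0.143 CPM (SD, n = 3) against 0.985 ± 0.114 CPM (SD, n = 4) with acetate. Leaving out S15, S16 or S18 in place of S17 gave a call, with edgeR adjusted p = 0.0108, 0.0235 and 0.0278. The authors' deposited table gives CHAC1 a log2 fold change of -0.73 for acetate against TGF-β1, with p = 0.260 by the authors' own test. Their q-value of 0.0809 lies below that p, so it cannot be read on the scale of the adjusted p above. Against control the acetate group was lower, with a log2 fold change of -4.56 ± 0.48 (edgeR adjusted p = 6.81e-08).

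DDIT4 and SESN2 encode stress proteins that restrain mTORC1, the kinase complex that couples nutrients to growth. DDIT4 (REDD1) had 369, 386, 376 and 389 CPM in control, 165, 170, 234 and 171 CPM with TGF-β1, and 103, 101, 115 and 99.5 CPM with acetate. Its 3 groups were apart, in falling order, and S17 was again the highest TGF-β1 library. DDIT4 fell by 1.03 ± 0.083 on the log2 scale with TGF-β1 (edgeR adjusted p = 1.04e-08) and by a further 0.82 ± 0.089 with acetate (adjusted p = 9.28e-07). DDIT4 lies at chr10:72273920-72276036 and shares 41.2% of its exon bases with an antisense gene, listed as RP11-442H21.2. In all 12 libraries the antisense gene held between 0.724 and 0.787 counts for each DDIT4 count. Because the strand setting is unknown, it cannot be told apart whether those are reads of DDIT4 itself.

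SESN2 (sestrin 2) also senses leucine for mTORC1. It was 37.5, 42.6, 41.8 and 42.3 CPM in control, 11.3, 13.4, 16.4 and 12.3 CPM with TGF-β1, and 13, 12.9, 14.3 and 13.6 CPM with acetate. The treated groups overlapped, and both lay below control. The log2 fold change was -1.61 ± 0.083 with TGF-β1 (edgeR adjusted p = 3.51e-11) and 0.02 ± 0.092 between acetate and TGF-β1 (adjusted p = 0.876). The sign of the latter turned when any of 4 single libraries was left out, and it was not called in any alternative.

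ASNS, asparagine synthetase, is the classical amino acid response target. It had 239, 252, 262 and 252 CPM in control, 34.4, 36.2, 43.6 and 36.8 CPM with TGF-β1, and 17.5, 15.4, 19.2 and 17.7 CPM with acetate. The groups were well apart, and ASNS fell in both steps. The log2 fold change was -2.73 ± 0.060 with TGF-β1 (edgeR adjusted p = 4.88e-16) and a further -1.11 ± 0.075 with acetate (adjusted p = 3.53e-09). ASNS fell while TRIB3 rose in the acetate step. Acetate libraries therefore held 6.93% of the control mean of ASNS, a 14.4-fold lower level. ASNS shares 44.6% of its exon bases with AC079781.5 on the same strand, which was not among the genes analysed. Reads of both cannot be told apart in the shared part.

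VLDLR, a lipoprotein receptor that the unfolded protein response is known to raise, moved least among the called genes. Control libraries had 57.7, 61.1, 58.8 and 55.7 CPM, TGF-β1 libraries 40.5, 41.9, 43.9 and 39.7 CPM, and acetate libraries 48.8, 49.5, 48.9 and 48.4 CPM. The 3 groups did not overlap, with acetate in the middle. The log2 fold change was -0.48 ± 0.042 with TGF-β1 (edgeR adjusted p = 2.89e-08) and 0.25 ± 0.040 with acetate (adjusted p = 5.32e-05). Relative to control, VLDLR stayed lower with acetate (-0.25 ± 0.039, edgeR adjusted p = 9.61e-06). VLDLR shares 7.90% of its exon bases with VLDLR-AS1 on the other strand, which averaged 12.2, 6.49 and 6.62 CPM in control, TGF-β1 and acetate.

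**Figure D3:**
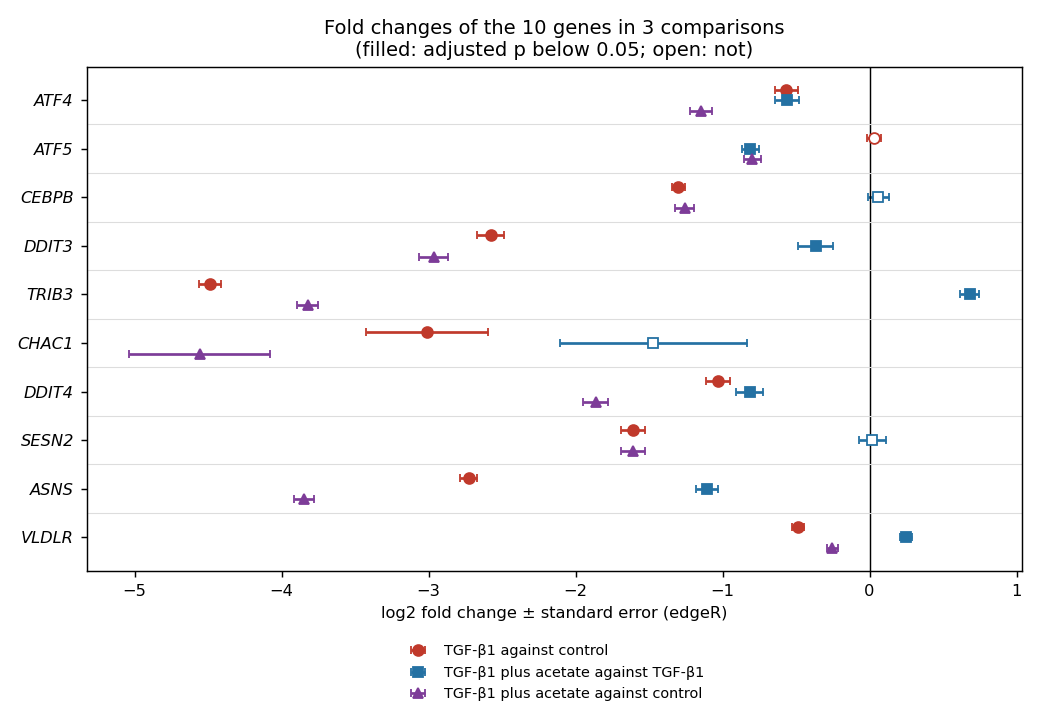
Points show the log2 fold change with its standard error for each gene in 3 comparisons, filled where the edgeR adjusted p was below 0.05. With TGF-β1 against control, 9 points are filled and all lie left of 0; with acetate against TGF-β1, TRIB3 (0.68) and VLDLR (0.25) are the filled points to the right of 0.

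Levels of different genes were compared as CPM per kilobase of annotated exon. In control the order was TRIB3 (192.5 ± 14.5), DDIT4 (184.6 ± 4.51), ATF4 (132 ± 3.24), ASNS (56.5 ± 2.10), DDIT3 (52.8 ± 3.04), CEBPB (47.7 ± 2.00), SESN2 (11.9 ± 0.691), CHAC1 (11.3 ± 0.692), ATF5 (6.56 ± 0.258) and VLDLR (6.25 ± 0.243), each ± SD with n = 4. TRIB3 and DDIT4, ASNS and DDIT3, DDIT3 and CEBPB, SESN2 and CHAC1, and ATF5 and VLDLR overlapped as neighbours in that order. With TGF-β1 the order changed: DDIT4 (89.9) and ATF4 (88.7) overlapped at the top, CEBPB followed at 19.3, and TRIB3 at 8.52 overlapped with both DDIT3 (8.72) and ASNS (8.47). With acetate, ATF4 (59.7) was above DDIT4 (50.7) without overlap, TRIB3 (13.6) above DDIT3 (6.76), and ASNS (3.91), SESN2 (3.89) and ATF5 (3.78) overlapped as neighbours. CHAC1 was the lowest in both treated groups, at 1.27 and 0.479, although with TGF-β1 its range overlapped that of SESN2 through S17.

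**Figure D4:**
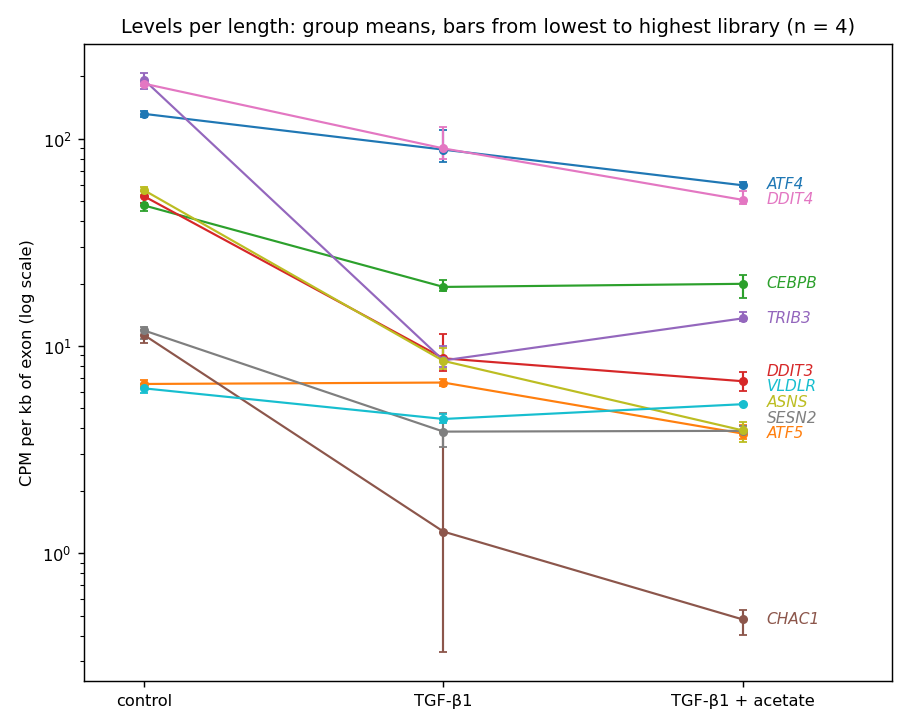
Lines join the group means of CPM per kilobase of exon on a log axis, with bars from the lowest to the highest library (n = 4 per group). TRIB3 drops from 192.5 to 8.52 and ends at 13.6, whereas ATF4 goes from 132 to 88.7 to 59.7.

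Other genes of the pathway were read as lists, some of which share genes and all chosen with earlier results of these data known. They stand beside the same backgrounds of 32.8% lower and 34.1% higher with TGF-β1 and 30.4% and 33.3% with acetate against TGF-β1. With raw library totals, 8676 of 22051 genes were lower and 6078 higher with TGF-β1. In acetate against TGF-β1, 4699 of 22336 were lower and 9592 higher under that scaling. Counts given below for raw library totals are to be read against these. Of 22 further stress targets of ATF4, 18 were lower and 4 higher with TGF-β1 (edgeR), with a median log2 fold change of -1.45. NUPR1, a stress-induced chromatin cofactor, went from 24.8 ± 3.12 to 0.609 ± 0.172 CPM (SD, n = 4; log2 fold change -5.31 ± 0.14). GDF15, a secreted stress cytokine, went from 45.1 to 2.59 CPM, and SLC7A11, the cystine transporter, from 971 to 236 CPM. In the acetate step (against TGF-β1), 11 of the 22 were higher and 7 lower, with a median of 0.17. FAM129A, a stress protein, rose from 3.62 to 10.3 CPM in that step, whereas SLC3A2, the heavy chain of amino acid transporters, fell from 575 to 332 CPM and XPOT, a tRNA exporter, from 229 to 154 CPM. Against control, 17 were lower and 2 higher with acetate, beside 34.4% lower and 36.1% higher among all genes.

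Amino acid supply genes moved alike with TGF-β1: 17 of 18 were lower and 1, the leucine transporter gene SLC7A5, was higher, with a median of -1.67. PSAT1, of serine synthesis, went from 613 ± 0.917 to 115 ± 6.13 CPM (SD, n = 4; log2 fold change -2.41 ± 0.04), and SLC1A4 and SLC1A5, neutral amino acid carriers, fell by 2.47 and 1.74 on the log2 scale. SLC7A5 was not called higher when raw library totals were used. In the acetate step, 6 rose and 6 fell, and with raw library totals 11 rose and 4 fell. MTHFD2, of the mitochondrial folate cycle, fell from 126 to 63.3 CPM and SLC7A5 from 1514 to 811 CPM, while SLC43A1, an amino acid carrier, rose from 1.05 to 4.68 CPM. Against control, 17 of the 18 were lower in the acetate group and 0 higher, also at an unadjusted p below 0.05 and with DESeq2 or limma-voom.

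All 12 cytosolic tRNA synthetases tested, which were listed as ATF4 targets, were lower with TGF-β1, with a median of -0.95. Other cytosolic synthetases were not in this list. AARS, GARS and YARS fell by 1.54, 1.30 and 1.29 on the log2 scale. In the acetate step, 10 of the 12 were lower and 0 higher by edgeR, DESeq2 and limma-voom (0 at an unadjusted edgeR p below 0.05), with a median of -0.25. With raw library totals 6 were lower in that step. TARS and IARS fell by 0.53 and 0.50 on the log2 scale there. S17 was the highest TGF-β1 library for 13 of 22 stress targets, 12 of 18 supply genes and 11 of 12 synthetases. S24 was the highest acetate library for 12, 13 and 8 genes of the same lists, and S2 the highest control library for 14 of the 22 stress targets. Of all genes, S17 was highest in 24%, S24 in 32.8% and S2 in 27.7%. The lists' median log2 excess over the other 3 libraries was 0.158, 0.143 and 0.063 in S17 and 0.049, 0.099 and 0.037 in S24. For the stress targets it was 0.108 in S2. Lists of p53, hypoxia, glucocorticoid receptor and mTORC1 genes are given below. There S17 was highest for 4 of 16, 1 of 14, 4 of 9 and 1 of 16 genes. S24 was highest for 9, 6, 3 and 7, and S2 for 9, 8, 4 and 10.

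Upstream of ATF4, the kinases of eIF2α and their regulators showed smaller changes. With TGF-β1, 2 of 9 were higher and 5 lower, with a median of -0.17: IMPACT, which restrains the kinase GCN2, fell by 0.54 on the log2 scale. OMA1 and KIAA0141 (DELE1), which carry mitochondrial stress to the pathway, fell by 0.61 and 0.39. With acetate against TGF-β1, 2 were higher and 2 lower, with KIAA0141 at -0.57 and IMPACT at 0.31, whereas raw library totals gave 7 higher and 1 lower. Among 14 genes of eIF2, its exchange factor eIF2B and the eIF2α phosphatase, 5 were higher and 5 lower with TGF-β1 (4 and 8 with raw library totals). PPP1R15A (GADD34), the stress-induced phosphatase subunit and itself an ATF4 target, fell from 88.7 ± 5.57 to 19.95 ± 2.87 CPM (SD, n = 4; log2 fold change -2.14 ± 0.08). In the acetate step 10 of the 14 were lower and 0 higher by edgeR, DESeq2 and limma-voom (1 higher at an unadjusted edgeR p below 0.05), whereas raw library totals gave 5 lower and 2 higher.

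Relatives of the 10 genes took different directions. Among 20 other bZIP genes, 5 were higher and 11 lower with TGF-β1, and 8 higher and 10 lower with acetate against TGF-β1 (9 and 8 with raw library totals). CREM, a cAMP-responsive factor, rose from 30.4 to 77.5 CPM with TGF-β1 and was 32.3 CPM with acetate, and CEBPG, a partner of ATF4, was 285, 124 and 87.1 CPM in control, TGF-β1 and acetate. Of 12 close relatives, 3 were higher and 9 lower with TGF-β1, and 6 higher and 4 lower with acetate. SESN1, a sestrin known as a p53 target, rose by 0.73 on the log2 scale with TGF-β1, the step in which SESN2 fell. SESN3, a sestrin under FOXO control, rose by 1.30 on the log2 scale with acetate against TGF-β1, and TRIB1 by 0.63.

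The other arms of the unfolded protein response did not follow the ATF4 lists in direction. Of 20 genes of the IRE1 and ATF6 arms, 11 were higher and 4 lower with TGF-β1, with a median of 0.20, and raw library totals gave 10 higher and 7 lower. ERN1, the gene of IRE1 itself, fell by 2.42 and its target XBP1 by 1.22 on the log2 scale, while the chaperone gene CALR rose from 438 to 872 CPM. With acetate against TGF-β1, 6 were higher and 8 lower, a balance that turned with raw library totals (10 higher and 6 lower). Among 11 mitochondrial chaperones and proteases, 4 were higher and 7 lower with TGF-β1: HSPA9 fell by 1.00 and LONP1 by 1.11 on the log2 scale. With acetate against TGF-β1, 8 of the 11 were lower and 0 higher (0 at an unadjusted edgeR p below 0.05; DESeq2 9 lower and 0 higher; limma-voom 8 and 0), and raw library totals gave 4 lower and 1 higher. The difference in direction between lists was not tested.

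**Figure D5:**
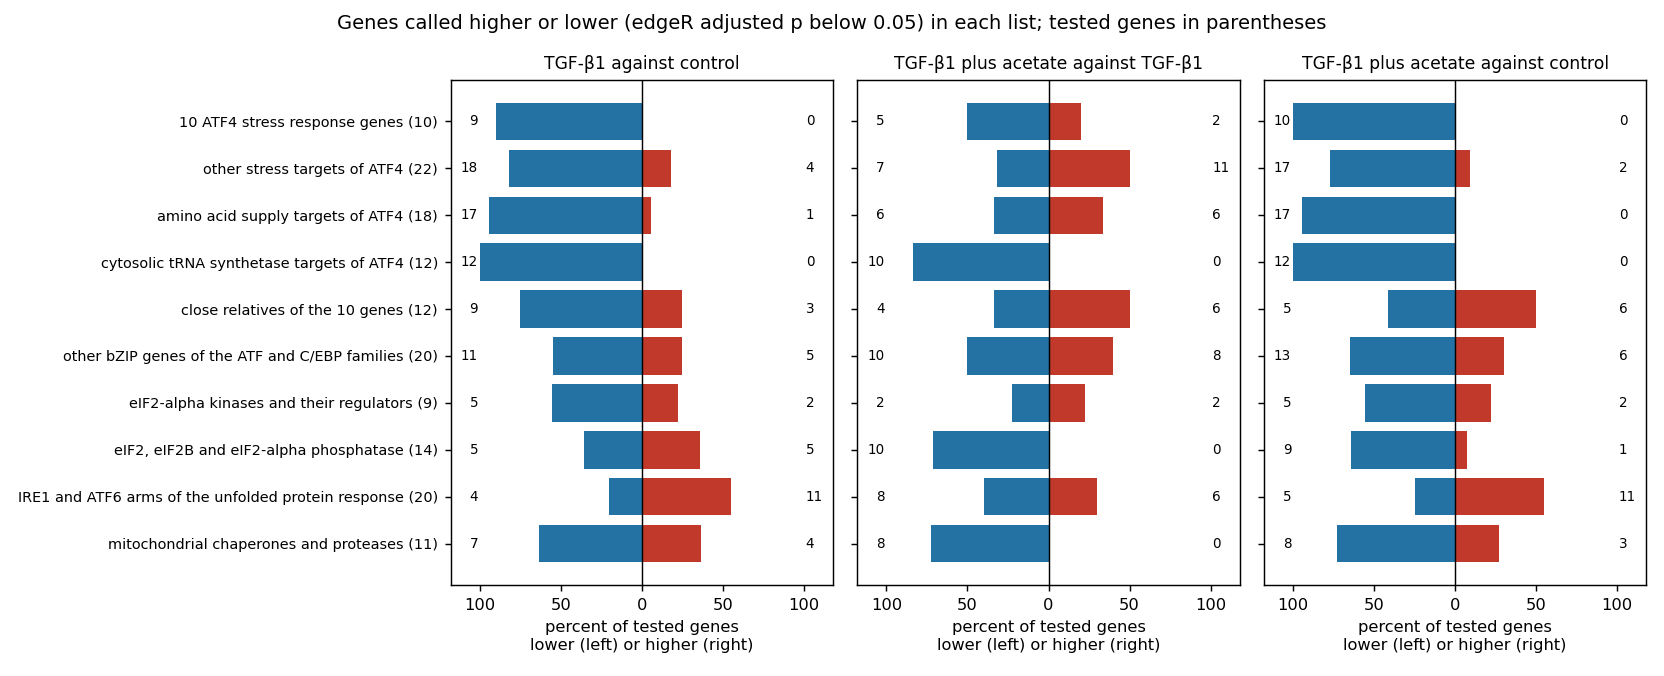
Bars give the percent of each list's tested genes (number in parentheses) called lower (blue, left) or higher (red, right) by edgeR in each comparison, with the counts at the edges. With TGF-β1 against control the 3 lists of ATF4 targets lie mostly to the left, with 18 of 22, 17 of 18 and 12 of 12 lower, while 11 of 20 genes of the IRE1 and ATF6 arms were higher.

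The genes outside these lists whose log2 levels over the 12 libraries were most like ATF4 were sought among 17233 genes. They were the linker histone gene HIST1H1D (Pearson r = 0.993), RP11-442H21.2 (0.992), HIST4H4 (0.990), the retinaldehyde reductase gene DHRS3 (0.990) and HIST1H1C (0.989). RP11-442H21.2 is the antisense gene that shares exon bases with DDIT4, 1 of the 10 genes. Whether its counts are reads of DDIT4 itself cannot be told apart. HIST1H1D averaged 496, 295 and 156 CPM in control, TGF-β1 and acetate. Histone genes have close copies between which reads may be split. For TRIB3 the most similar were AKR1C3 (0.999), RP11-78I14.1 (0.999), ERRFI1 (0.999), AJUBA (0.998) and ALDH3A1 (0.998). ALDH3A1, an aldehyde dehydrogenase, averaged 877, 29.5 and 43.8 CPM, and AKR1C3, a reductase with near-identical relatives, 1607, 315 and 398 CPM. These correlations describe 3 groups of libraries and carry no test.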

How the data were processed

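The authors deposited 2 gene tables with raw counts per library, and their own log2 fold changes with p-values and q-values. Per the submitters' processing notes, bcl2fastq, HISAT2 and limma were used with hg38; versions, counter and strand setting: not given in the sources used here. Per the labels' protocols, libraries were stranded and depleted of ribosomal RNA. Another 32 columns of values per library were not used. Columns were placed in groups from the table names and the shared column set. Pairs of libraries within groups differed by a chi-square of 3.95 to 17.3 per degree of freedom, so none was a duplicate.

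Counts were fitted in R 4.3.3 with edgeR 4.0.16 (filterByExpr, minimum count 10 and minimum total 15; TMM; glmQLFTest, two-sided; Benjamini-Hochberg, 0.05), within the table that holds both groups. For acetate against control all 12 libraries were fitted jointly on the 23771 shared genes, which also gave CPM. Standard errors are the fold change divided by the square root of F. The fits were tested on simulated data. Exon lengths came from GENCODE release 29 (99.1% of identifiers matched). DESeq2 1.42.0, limma-voom 3.58.1, other scalings, no filter and each library left out were tried. The 10 genes and all lists were chosen with earlier results of these data known. From each list up to 3 genes with the smallest p in a comparison were named, with examples from another comparison added, and the 5 genes most like ATF4 or TRIB3.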

Additional observations from a re-analysis of the deposited data

Results flagged for a closer look

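In each group of 4 libraries, the highest and lowest were compared with the rest by the ratio of the gap to the whole range (Dixon's test for 4 values). Of 30 groups, 7 had such a library. The nominal rate of the test is about 1 in 20 groups, but the 30 groups share genes and libraries and are not independent. The share of all genes flagged by this rule was not computed, so no excess over chance can be read. Of the 7, 4 were in S17 of the TGF-β1 group: CHAC1 at 7.91 CPM against 0.686 to 0.950 in the other 3, TRIB3 at 34.4 against 27.3 to 27.8, DDIT4 at 234 against 165 to 171, and DDIT3 at 14.9 against 9.85 to 10.6. In the acetate group, S24 was high for ATF4 (156 CPM against 147 to 149) and TRIB3 (50.1 against 45.5 to 45.7), which are small gaps. In the control group, S1 was low for SESN2, at 37.5 CPM against 41.8 to 42.6.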

How the results depend on the processing

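Of the 140 fold changes of the 10 genes under 14 alternatives for TGF-β1 against control, 137 kept direction and call and 3 changed sign, all of ATF5, which was never called: -0.0729 with raw library totals and -0.0147 to 0.0483 when single libraries were left out. For acetate against TGF-β1, 128 of 140 kept both. SESN2 changed sign with DESeq2-style size factors (-0.0018) and ran from -0.0818 to 0.114 with single libraries left out, never called. CHAC1 ran from -1.81 to 0.20 with single libraries left out, was called in the joint fit (-1.53, adjusted p = 0.0364), and had no adjusted p from DESeq2. DDIT3 lost and CEBPB gained its call with raw library totals. For acetate against control, 179 of 180 kept both, the exception being CHAC1, without an adjusted p from DESeq2. Beyond S17 and the scaling, the cause of these changes was not tested. No paired analysis was possible because the count columns carry no replicate numbers. Depth limits only CHAC1, with 28 to 39 counts in the TGF-β1 libraries other than S17 and 35 to 48 in the acetate libraries.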

Other observations

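Genes under other regulators that also act on some of the 10 genes gave mixed counts by edgeR. Among all genes, 34.1% were higher and 32.8% lower with TGF-β1, and 33.3% and 30.4% with acetate against TGF-β1. Counts near these shares are not read as a result about a list. Of 16 p53 targets, 10 were higher and 4 lower with TGF-β1 and 6 higher and 7 lower with acetate against TGF-β1 (6 and 4 with raw library totals): TP53I3 was 1.82 and then -1.06 on the log2 scale, and CDKN1A, the cell cycle inhibitor p21, rose by 0.95 with acetate. Of 14 hypoxia targets, 5 were higher and 6 lower with TGF-β1, and 6 higher and 5 lower with acetate, with BNIP3 at -1.07 and KDM3A at 1.03 in the former. Of 9 glucocorticoid receptor targets, 3 were higher and 6 lower with TGF-β1, and 5 higher and 3 lower with acetate. FKBP5 was -2.10 with TGF-β1, whereas ANGPTL4 was 4.29 and then -2.47 with acetate.

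In the mTORC1 pathway, which DDIT4 and SESN2 restrain, 8 of 16 genes were higher and 5 lower with TGF-β1, and 2 higher and 8 lower with acetate. With raw library totals these counts were 3 higher and 7 lower, and 4 higher and 4 lower. Under that scaling 6078 of all 22051 genes were higher and 8676 lower with TGF-β1. With acetate against TGF-β1, 9592 of 22336 were higher and 4699 lower. GATSL3 (CASTOR1), the arginine sensor, rose by 1.75 with TGF-β1 and was -0.73 with acetate against TGF-β1. RRAGD, a Rag GTPase, rose by 1.76 with acetate, and EIF4EBP1, a translation repressor and ATF4 target, fell by 0.66 with TGF-β1.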
